A study of Mus musculus with 18 samples.

Results

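The 10 genes Ddx58, Ifih1, Dhx58, Eif2ak2, Tlr3, Zbp1, Tmem173, Mavs, Tbk1 and Adar encode sensors of foreign or misplaced nucleic acid and the proteins that relay or restrain their signal. They were chosen by symbol from the 17672 genes of the deposited count table of brown adipocytes, with their difference between cells with and without doxycycline (Dox) in the vehicle DMSO already known. That difference is therefore given as a description, with no p for any of the 10. The same difference was tested in the libraries stimulated with isoproterenol (ISO) or SR-3420, which the DMSO difference does not use. Earlier results of these data were known at the choice, so these tests may not be fully independent of it.

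RNA was sequenced from 1 immortalised mouse brown adipocyte line in which a stable shRNA lowers Abhd5, the gene of an activator of the triglyceride lipase ATGL, and in which Dox switches on an mCherry-tagged ABHD5 that the shRNA does not target. Every library carries both constructs. Cells without Dox have the genotype label ABHD5 KD, and rescued cells with Dox (1 µg/ml) the label WT. The labels give 24 to 48 h of Dox, and the study's account of this experiment gives 24 h. Each state was stimulated for 3 h with DMSO, with ISO (10 nM), an agonist of β-adrenergic receptors, or with the ABHD5 ligand SR-3420 (20 µM), in 3 replicates per group and 18 libraries in all. The groups do not include cells that received Dox without the inducible construct, so restored ABHD5, the tagged protein and Dox itself cannot be told apart.

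RIG-I (Ddx58) and MDA5 (Ifih1) are helicases that bind viral or aberrant RNA in the cytosol and pass the signal to the mitochondrial adaptor MAVS, from which the kinase TBK1 leads to interferon genes. LGP2 (Dhx58) is a related helicase without signalling domains, TLR3 senses double-stranded RNA in endosomes, ZBP1 binds nucleic acid in the Z form, and STING (Tmem173) is the adaptor of the DNA sensor cGAS. PKR (Eif2ak2) halts translation when it binds double-stranded RNA, ADAR edits such RNA so that it escapes the sensors, and many of these genes are themselves targets of interferon.

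The libraries held 689910 to 1956565 counts. For the 10 genes the length over which reads were counted came to 76.05% to 106% of their intron bases, while the study's methods name counting over genes. Whether the counts come from introns, and so from unspliced RNA, or from whole genes was not settled, and every level below holds for the reads as counted. Abhd5 lay at 47.2 to 55.8 CPM (counts per 1e+06 counts of a library, its size scaled by a TMM factor) in DMSO without Dox and at 484 to 656 CPM with Dox, and its groups did not overlap in ISO or SR-3420 either. The counts do not separate the endogenous gene from the construct. A construct without introns would give no intron reads, and where the reads of Abhd5 fall was not tested. SR-3420 with Dox replicate 1 stood apart: its 10 most counted genes took 35.6% of its counts, against 16.3% to 26.5% in the other 17 libraries. The summed level of 7 adipocyte markers was 2766 to 3327 CPM without and 3254 to 3733 CPM with Dox in DMSO, where these ranges overlap. It was higher in every library with Dox in ISO (5818 to 5932 against 3764 to 3948 CPM) and in SR-3420 (4471 to 5781 against 3995 to 4202 CPM). There 5 and 3 of the 7 markers rose, against 7.92% and 7.26% of all genes tested. The part of this difference in the results below was not tested. The summed level of 7 macrophage markers was 7.51 to 20.9 CPM with none at 0 throughout, and the summed level of 8 dendritic cell and lymphocyte markers was 0 to 7.56 CPM, Siglech being at 0 in all. The macrophage sum spanned 10.9 to 20.3 CPM in DMSO without Dox and 14.6 to 19.3 CPM with Dox, and these ranges overlapped in ISO and SR-3420 as well. In bulk RNA, fewer cells of a type and less RNA per cell cannot be told apart.

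All 10 genes passed the filter on low counts, which asks for 3 libraries above 8.73 CPM of the unscaled library total. Zbp1 met it in 9 libraries with and 1 without Dox and so passed through the groups where it is high, and Tmem173 met it in 2 with and 1 without Dox. At an adjusted p of 0.05 and a 2-fold change, the threshold used below, 6 of the 10 lay past it in DMSO, all higher with Dox, where 0.874% of the 10178 genes tested were. This share only restates how the genes were chosen. In ISO the same 6, Ddx58, Ifih1, Dhx58, Eif2ak2, Zbp1 and Adar, rose by at least 2-fold, against 3.13% of all genes tested. In SR-3420 these 6 and Tlr3 rose by at least 2-fold, against 2.44% of all genes. The counts in both include Zbp1, which the filter let in only as high with Dox. The 3 libraries with Dox were all above the 3 without for 7 of the genes in DMSO (7.98% of all genes), 6 in ISO (14.7%) and 7 in SR-3420 (15.4%). These were the 6 genes, with Tlr3 in DMSO and Tbk1 in SR-3420. Mavs fell in SR-3420 by less than 2-fold, while Tbk1 and Tmem173 passed in neither. The median log2 fold change of the 10 genes was 2.16 in ISO and 1.79 in SR-3420, where the median of all genes tested was -0.01 and 0.00. These medians include Zbp1. The 3 stimulations are separate libraries of the same line and may come from the same experiments.

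**Figure D1:**
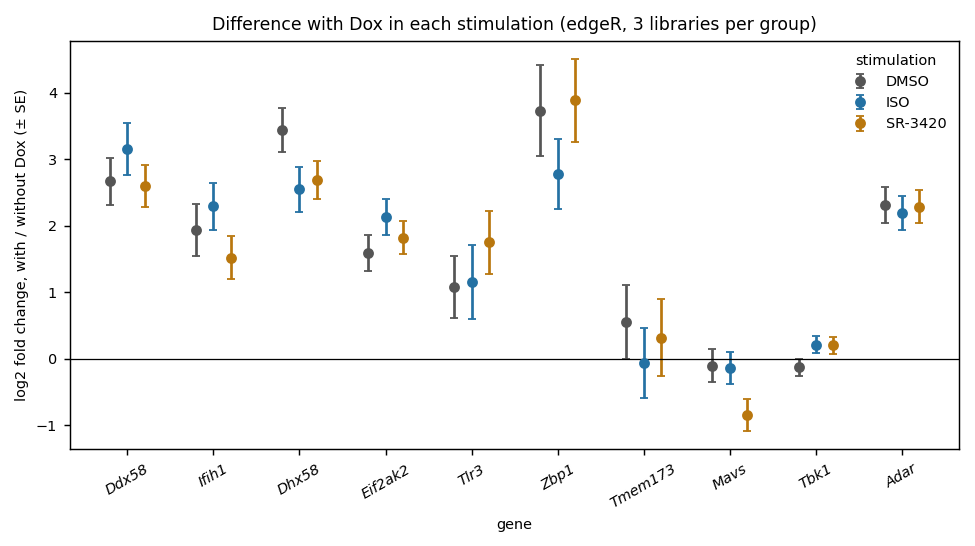
Log2 fold change with against without Dox (vertical axis) for each of the 10 genes (horizontal axis), in DMSO, ISO and SR-3420, as edgeR estimates with bars of 1 SE from 3 libraries per group. Ddx58, Ifih1, Dhx58, Eif2ak2, Zbp1 and Adar lie above 1.5 in all 3 stimulations, and Tmem173, Mavs and Tbk1 lie between -0.84 and 0.55.

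The 3 helicases were scarce in cells without Dox. Ddx58 (NM_172689, chr4:40150810-40186858 of mm9, minus strand) lay at 13.3, 35.4 and 19.3 CPM in DMSO replicates 1 to 3 without Dox and at 96.8, 153 and 171 CPM with Dox. In ISO it lay at 6.48, 19.8 and 8.26 CPM without Dox and at 69.2, 118 and 120.3 CPM with Dox. In SR-3420 its libraries held 12.2, 37.8 and 19.6 CPM without Dox and 93.2, 158 and 178 CPM with Dox. The lowest library with Dox was above the highest without it in each stimulation, and replicate 2 was the highest without Dox in all 3. The log2 fold change was 2.67 (SE 0.35) in DMSO. It was 3.16 (SE 0.39, edgeR adjusted p = 1.38e-06) in ISO and 2.60 (SE 0.32, edgeR adjusted p = 1.46e-06) in SR-3420. A library without Dox held only 6 to 65 reads of Ddx58.

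Ifih1 (NM_027835, chr2:62433850-62484312 of mm9, minus strand) had the fewest reads per kilobase of counted length of the 10 in DMSO, with and without Dox. Its level was 13.3, 12.2 and 7.10 CPM in DMSO without Dox and 35.1, 47.9 and 46.1 CPM with Dox. With ISO the values were 8.65, 17.8 and 8.26 CPM without Dox and 34.2, 70.9 and 63.5 CPM with it. SR-3420 libraries had 16.8, 23.8 and 7.85 CPM without Dox and 29.0, 62.6 and 53.9 CPM with it. The groups did not overlap in any stimulation, though the gap in SR-3420 was narrow. The difference was 3.82-fold in DMSO (log2 1.94, SE 0.39). Ifih1 rose 4.90-fold in ISO (log2 2.29, SE 0.36, edgeR adjusted p = 3.57e-05) and 2.87-fold in SR-3420 (log2 1.52, SE 0.32, edgeR adjusted p = 0.0018).

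Dhx58 (NM_030150, chr11:100556198-100565585 of mm9, minus strand) showed the highest level with Dox of the 3 helicases in DMSO. It stood at 13.3, 25.8 and 15.2 CPM in DMSO without Dox and at 133, 219.7 and 228 CPM with Dox, a 10.9-fold difference (log2 3.44, SE 0.34). In ISO the levels were 16.2, 30.7 and 12 CPM without Dox and 76.7, 137 and 124 CPM with Dox. In SR-3420 they were 15.1, 36.6 and 29.8 CPM without Dox and 114, 205 and 206 CPM with Dox. Again no library with Dox fell below one without it. Dhx58 rose by a log2 fold change of 2.55 in ISO (SE 0.33, edgeR adjusted p = 2.83e-06) and 2.69 in SR-3420 (SE 0.29, edgeR adjusted p = 1.63e-07). The gene overlaps Gm11547 on the other strand over 2637 bases. Strand use in the counting is not stated, so reads of that transcript cannot be told apart from those of Dhx58.

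**Figure D2:**
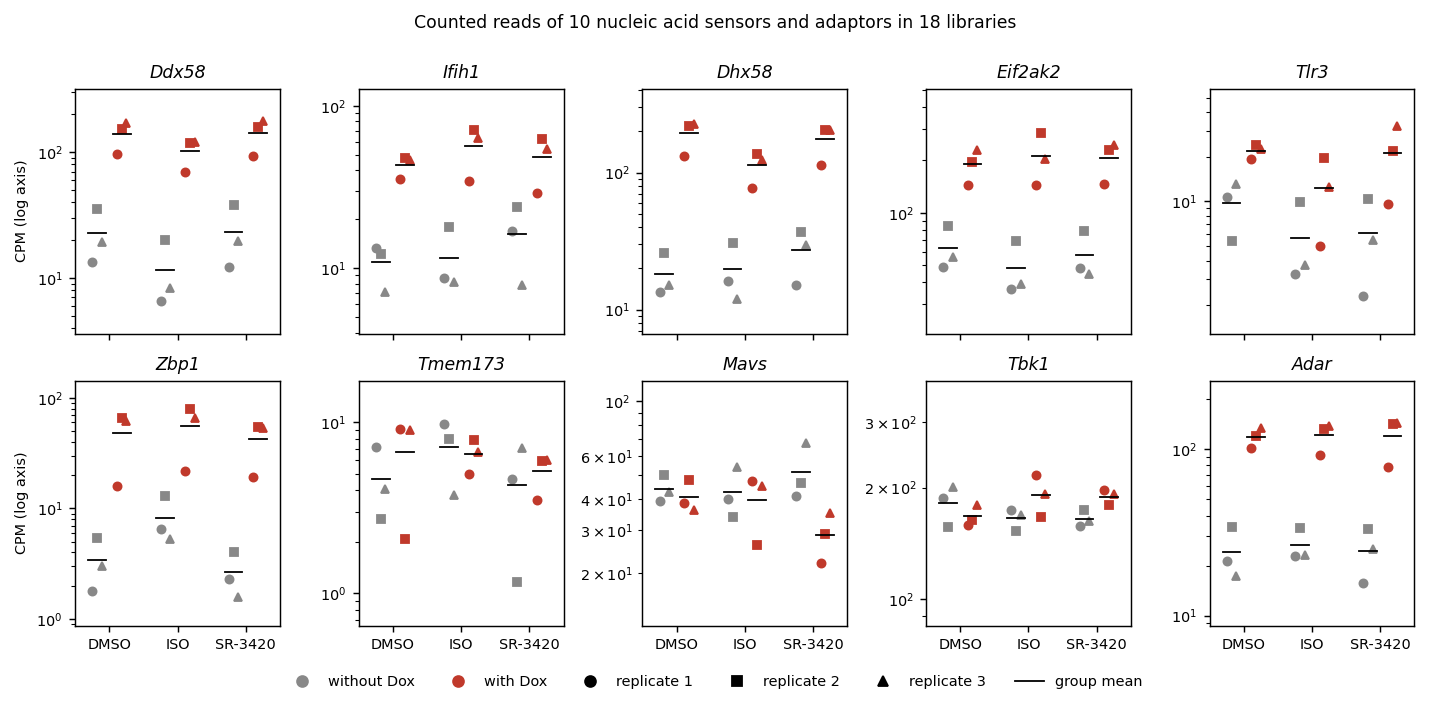
Level of each gene in CPM (vertical axis, log scale, own range in each panel) in DMSO, ISO and SR-3420 (horizontal axis), with 1 point per library without and with Dox and a bar at each group mean. The points with Dox lie above those without Dox in all 3 stimulations for Ddx58, Ifih1, Dhx58, Eif2ak2, Zbp1 and Adar, and overlap with them in all 3 for Tmem173.

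Eif2ak2, encoding PKR (NM_011163, chr17:79251890-79281912 of mm9, minus strand), had the highest CPM of the 6 genes without Dox, with no correction for length. Per kilobase, Dhx58 had the higher mean without Dox in each stimulation. Eif2ak2 lay at 48.9, 84.3 and 55.8 CPM in DMSO without Dox and at 143, 196 and 227 CPM with Dox. ISO libraries held 36.7, 69.4 and 39.0 CPM without Dox and 144, 284 and 204 CPM with it. SR-3420 libraries held 48.2, 79.0 and 44.7 CPM without Dox and 146, 228 and 243 CPM with it. Levels with Dox were above all levels without it in each stimulation. The log2 fold change was 1.59 (SE 0.27) in DMSO, and Eif2ak2 rose by 2.13 in ISO (SE 0.27, edgeR adjusted p = 1.54e-06) and by 1.82 in SR-3420 (SE 0.25, edgeR adjusted p = 8.49e-06). It overlaps the non-coding Gm16825 over 531 bases and n-R5s29 over 119 bases, both on the other strand.

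Adar (NM_001038587, chr3:89518944-89557377 of mm9, plus strand), the editing enzyme, had the most even difference over the stimulations. In DMSO it lay at 21.4, 34.0 and 17.2 CPM without Dox and at 102, 119.7 and 134 CPM with Dox. In ISO it moved from 22.7, 33.7 and 23.3 CPM without Dox to 92.5, 133 and 139 CPM with Dox. In SR-3420 it moved from 15.7, 33.1 and 25.1 CPM to 78.2, 141 and 144 CPM. The group means without Dox were 24.2 to 26.6 CPM and those with Dox 118 to 121 CPM. The log2 fold change was 2.32 (SE 0.27) in DMSO, 2.19 in ISO (SE 0.26, edgeR adjusted p = 4.99e-07) and 2.29 in SR-3420 (SE 0.25, edgeR adjusted p = 1.68e-07).

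Zbp1 (NM_021394, chr2:173032114-173044423 of mm9, minus strand) was close to the limit of detection without Dox. DMSO libraries without Dox held 2, 4 and 3 reads of it and those with Dox 33, 63 and 55 reads. In ISO there were 6, 13 and 7 reads without Dox and 26, 101 and 68 with Dox. In SR-3420 there were 4, 7 and 2 reads without Dox and 22, 55 and 54 with Dox. In each stimulation replicate 1 was the lowest library with Dox, and it was still above every library without Dox. Summed over replicates, the depth-scaled count ratio was 12.2 in DMSO (95% Clopper-Pearson interval 6.23 to 27.1), 6.98 in ISO (4.62 to 11) and 15.1 in SR-3420 (8.54 to 29.2). These intervals cover counting error only. Having passed the filter only through libraries with Dox, Zbp1 could enter the test only if it was high there, so its difference is given without a p. The log2 fold change was 2.78 in ISO (SE 0.53) and 3.89 in SR-3420 (SE 0.62).

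Tlr3, the endosomal receptor (NM_126166, chr8:46481019-46495893 of mm9, minus strand), differed less and less evenly. It lay at 10.7, 5.44 and 13.2 CPM in DMSO without Dox and at 19.3, 23.9 and 22.5 CPM with Dox, a 2.11-fold difference (log2 1.08, SE 0.46). In ISO it lay at 3.24, 9.91 and 3.75 CPM without Dox and at 5.002, 19.7 and 12.5 CPM with it, and these groups overlapped (log2 1.16, SE 0.56, edgeR adjusted p = 0.183). In SR-3420 it lay at 2.32, 10.45 and 5.49 CPM without Dox and at 9.67, 21.9 and 31.96 CPM with it. Tlr3 rose 3.36-fold there (log2 1.75, SE 0.47, edgeR adjusted p = 0.0133), although replicate 1 with Dox was below replicate 2 without Dox. The call was lost without SR-3420 without Dox replicate 1 (edgeR adjusted p = 0.0962), without SR-3420 with Dox replicate 3 (edgeR adjusted p = 0.129) and when all libraries were thinned to the smallest (edgeR adjusted p = 0.0968).

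No rise was called for Mavs, Tbk1 or Tmem173. Mavs, the mitochondrial adaptor (NM_001206385, chr2:131059799-131073760 of mm9, plus strand), lay at 39.15, 50.3 and 42.6 CPM in DMSO without Dox and at 38.5, 47.9 and 36.0 CPM with Dox. In ISO it lay at 39.985, 33.7 and 54.0 CPM without Dox and 47.5, 26.0 and 45.2 CPM with it, and the log2 fold change was -0.14 (95% interval -0.63 to 0.35, edgeR adjusted p = 0.775). In SR-3420 the 3 libraries without Dox, at 41.2, 46.5 and 67.5 CPM, were above the 3 with Dox, at 22.0, 28.8 and 35.0 CPM, as was so for 14.1% of all genes. Mavs fell there by 0.84 on the log2 scale (SE 0.24, edgeR adjusted p = 0.0208), where 4.28% of all genes tested fell. The call was lost without SR-3420 without Dox replicate 3 (edgeR adjusted p = 0.135), SR-3420 with Dox replicate 1 (edgeR adjusted p = 0.137) or SR-3420 with Dox replicate 2 (edgeR adjusted p = 0.0578). Whether the difference in SR-3420 exceeds that in DMSO was tested as an interaction, which did not pass (log2 -0.74, SE 0.35, edgeR adjusted p = 0.387).

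Tbk1 (NM_019786, chr10:120983513-121023850 of mm9, minus strand), with 115 to 330 reads per library, was measured the most precisely. It lay at 188, 156 and 201 CPM in DMSO without Dox and at 159, 163 and 179.8 CPM with Dox. In ISO its levels were 174, 153 and 169 CPM without Dox and 216, 166 and 193 CPM with it, and in SR-3420 158, 174 and 162 CPM against 197, 179 and 192 CPM. The 3 SR-3420 libraries with Dox were above the 3 without, as was so for 15.4% of all genes tested. The log2 fold change was 0.21 in ISO (95% interval -0.05 to 0.48, edgeR adjusted p = 0.324) and 0.20 in SR-3420 (95% interval -0.06 to 0.46, edgeR adjusted p = 0.347). The estimate in SR-3420 turned to -0.02 when libraries were scaled by their totals alone. These intervals leave out a 2-fold change in either direction.

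Tmem173, encoding STING (NM_028261 on chromosome 18), had 2 to 19 reads per library, and its groups overlapped in each stimulation. Its mean level was 4.63 ± 2.25 CPM without Dox and 6.74 ± 4.03 CPM with Dox in DMSO (SD, n = 3). In ISO it was 7.14 ± 3.06 CPM and 6.54 ± 1.45 CPM, and in SR-3420 4.29 ± 2.97 CPM and 5.16 ± 1.42 CPM. The 95% interval of the log2 fold change was -1.14 to 1.02 in ISO (edgeR adjusted p = 0.963) and -0.86 to 1.5 in SR-3420 (edgeR adjusted p = 0.792). A 2-fold rise lies within both intervals and was not detectable at this depth.

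Levels were also compared per kilobase of counted length, which changes the order of the genes. In DMSO without Dox, Mavs (5.45 ± 0.71 CPM per kb, SD, n = 3) and Tbk1 (4.87 ± 0.61) led and did not differ beyond their spread. Dhx58 (2.88 ± 1.07) and Eif2ak2 (2.46 ± 0.73) followed, also within their spread of each other. Tmem173, Tlr3, Adar and Ddx58 lay between 0.797 and 1.01 CPM per kb, Zbp1 at 0.390 ± 0.212 and Ifih1 at 0.257 ± 0.079. With Dox, Dhx58 stood first at 30.7 ± 8.36 CPM per kb, ahead of Eif2ak2 at 7.37 ± 1.65. Zbp1, Mavs, Ddx58, Tbk1 and Adar then lay between 4.14 and 5.44 CPM per kb, within the spread of Zbp1 (SD 3.15). In DMSO the adaptor and the kinase thus led without Dox and the helicase LGP2 with Dox. In SR-3420 without Dox, Tbk1 (4.42 ± 0.23 CPM per kb) and Dhx58 (4.31 ± 1.74) did not differ beyond their spread.

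Neither stimulation by itself moved most of the 10 genes. The comparisons with DMSO use the libraries on which the genes were chosen, most of them as high with Dox and low without it, so the choice itself favours a fall against DMSO with Dox and a rise against DMSO without Dox. In cells without Dox, 0 of 10 passed an adjusted p of 0.05 for ISO against DMSO, where 28.0% of all genes tested did. At an unadjusted p under 0.05 there were 0 of 10, against 3960 of the 10178 genes tested. DESeq2 also passed 0 there, while Ddx58 passed as lower in ISO with no filter on low counts (log2 -0.89, edgeR adjusted p = 0.0274). The estimates ran from -0.91 (Ddx58, SE 0.52) to 1.3 (Zbp1, SE 0.94). For SR-3420 against DMSO without Dox, 0 of 10 passed (0.766% of all genes), with estimates from -0.71 to 0.63. There were 0 of 10 at an unadjusted p under 0.05, against 893 of the 10178 genes. With Dox, SR-3420 again gave 0 of 10 (9.90% of all genes), with estimates from -0.51 (Mavs, SE 0.26) to 0.20. Here 0 of 10 had an unadjusted p under 0.05, against 2333 of the 10178 genes. DESeq2 passed 0 of 10 in both SR-3420 contrasts. With shares of 0.766% and 9.90% of all genes, 0 of 10 does not set these genes apart.

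For ISO with Dox, 32.5% of all genes tested passed in either direction and 1 of the 10 genes did. The falls given here are against the DMSO libraries with Dox that the choice used, and are not independent of it. Dhx58 fell by 0.75 on the log2 scale (SE 0.25, edgeR adjusted p = 0.0205) from a mean of 194 ± 52.7 CPM in DMSO to 113 ± 31.8 CPM in ISO (SD, n = 3). The 2 groups overlapped, at 133 to 228 CPM and 76.7 to 137 CPM, but each ISO library was below the DMSO library of the same number (76.7 against 133, 137 against 219.7 and 124 against 228 CPM). Same-numbered libraries deviate together in this contrast, and the fall of Dhx58 passed as well in a fit blocked on that number (log2 -0.79, edgeR adjusted p = 3.74e-06). Without the block the call was lost without ISO with Dox replicate 1 (log2 -0.53, edgeR adjusted p = 0.134) and without DMSO with Dox replicate 2 or 3 (edgeR adjusted p = 0.0784 and 0.103), and by DESeq2 (adjusted p = 0.143). The blocked fit also called Ddx58 lower in ISO (log2 -0.46, edgeR adjusted p = 0.0103) and Tlr3 lower in ISO (log2 -0.91, edgeR adjusted p = 0.0304). Mean Ddx58 was 140.2 ± 38.6 CPM in DMSO with Dox and 103 ± 28.9 CPM in ISO with Dox.

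**Figure D3:**
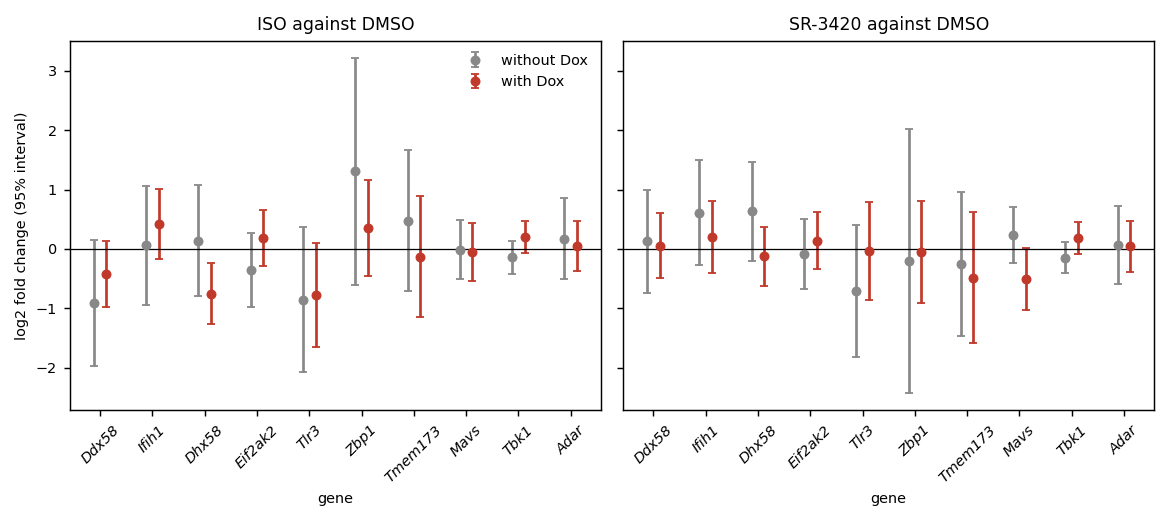
Log2 fold change of ISO (left) and SR-3420 (right) against DMSO (vertical axis) for the 10 genes (horizontal axis), without and with Dox, with bars of the 95% interval from 3 libraries per group. The estimates lie between -0.91 and 1.3 without Dox and between -0.78 and 0.42 with Dox, and that of Dhx58 with ISO and Dox is the 1 that passed.

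Whether the Dox difference itself depended on the stimulation was tested as an interaction. It passed for 0 of 10 genes with ISO against DMSO (2.18% of all genes tested) and 0 of 10 with SR-3420 against DMSO (0.757% of all genes). At an unadjusted p under 0.05 there were 0 and 1, the latter being Mavs, against 1436 and 1227 of the 10178 genes tested. DESeq2 passed 0 in both. The interactions with ISO ran from -0.96 (Zbp1, SE 1.02) to 0.54 (Eif2ak2, SE 0.39), and those with SR-3420 from -0.76 (Dhx58, SE 0.48) to 0.67 (Tlr3, SE 0.68). They share the DMSO libraries with the contrast on which the genes were chosen. For Adar the 95% interval with SR-3420 was -0.81 to 0.75, and for Zbp1 with SR-3420 -2.2 to 2.5, so the power to see a dependence differed widely between genes.

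Replicates of the 10 genes shifted together. Libraries numbered 2 were the highest of their group for 6, 7 and 8 of the 10 genes in DMSO, ISO and SR-3420 without Dox. Their mean deviation from the group was 0.19, 0.48 and 0.33 on the log2 scale. With Dox, libraries numbered 1 were lowest on average, at -0.28, -0.46 and -0.55. The SDs given above include these shared shifts. Without all 6 libraries numbered 2, a check chosen after seeing the data, the number of the 10 genes past the 2-fold call was still 6 in ISO and 7 in SR-3420. For Ddx58 the ratio of same-numbered libraries with and without Dox was 10.7, 5.96 and 14.6 in ISO and 7.64, 4.19 and 9.06 in SR-3420.

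**Figure D4:**
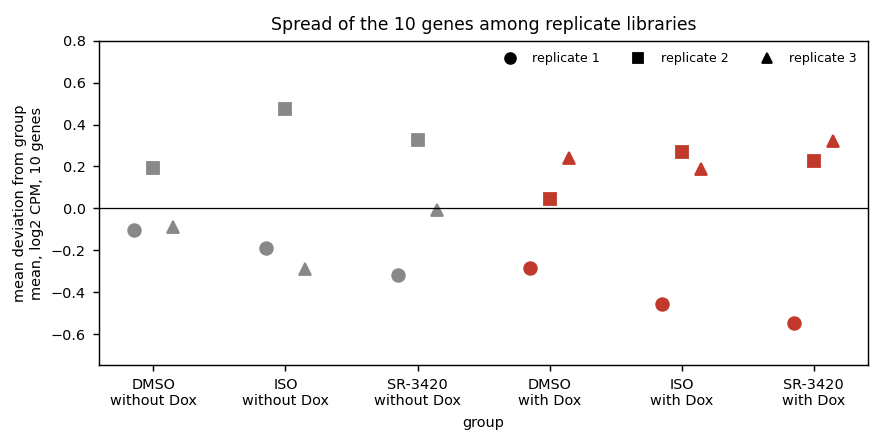
Mean deviation of the 10 genes from their group mean (vertical axis, log2 scale) for each library by group (horizontal axis), with the marker giving the replicate number. Replicate 2 is highest in the 3 groups without Dox, at 0.19 to 0.48, and replicate 1 is lowest in the 3 groups with Dox, at -0.28 to -0.55.

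The sequence in front of these genes was read from RefSeq windows of build GRCm38.p6, which reach from 250 bases before to 50 bases after a transcript start. The windows were searched on both strands for GAAANNGAAA, the core of the interferon-stimulated response element, and for TTCNNNGAA, the core of the gamma interferon activation site. Of the 10 genes 7 had a window, Adar having 3, and Dhx58, Zbp1 and Tmem173 had none. GAAANNGAAA was found in Ddx58, Ifih1 and Eif2ak2, 3 of the 7, and in 3.99% of the 27025 genes with a window. Those 3 are among the genes that rose, and the 30 bases around each match are shown 5′ to 3′ on the strand of the gene with the matched letters in capitals (in Ddx58 as the reverse complement TTTCNNTTTC).
Ddx58, chr4:40239804-40239833, minus strand: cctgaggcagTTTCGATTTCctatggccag
Ifih1, chr2:62646206-62646235, minus strand: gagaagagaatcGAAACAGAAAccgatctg
Eif2ak2, chr17:78882535-78882564, minus strand: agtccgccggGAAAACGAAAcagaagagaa
The matches begin at bases 3, 33 and 19 after the start, counted from 1 at the start. TTCNNNGAA was found in Eif2ak2 and in the third window of Adar, 2 of the 7, and in 9.55% of all genes with a window.
Eif2ak2, chr17:78882731-78882760, minus strand: ctgcagagctTTCCCAGAAtggaagccagg
Adar, chr3:89730730-89730759, plus strand: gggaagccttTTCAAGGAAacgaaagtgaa
The matches to the 2 motifs in Eif2ak2 do not overlap. Neither motif was found in the windows of Tlr3, Mavs and Tbk1. A match is a run of letters and not a measured binding site, and its absence says only that these letters are not in the window.

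Other genes of the same pathways, on lists drawn up with earlier results of these data known, were counted in the ISO and SR-3420 libraries. Of 17 tested partners and regulators of the RIG-I-like receptors, 5 rose in ISO, and 6 rose and 1 fell in SR-3420 (7.92% and 7.26% of all genes rose). Their median log2 fold change was 0.08 and 0.23. Trim25, the ubiquitin ligase that acts on RIG-I, rose 3.09-fold in ISO (edgeR adjusted p = 1.7e-07) and 4.08-fold in SR-3420 (edgeR adjusted p = 1.43e-08). Ddx60, a helicase linked to RIG-I, rose 11.1-fold in ISO (edgeR adjusted p = 2.22e-07) and 8.95-fold in SR-3420 (edgeR adjusted p = 1.65e-08). Zc3hav1, the antiviral zinc finger protein ZAP, rose by log2 0.90 (edgeR adjusted p = 0.0066) and 1.41 (edgeR adjusted p = 2.07e-05). These calls held in 13 and 14 of 14 alternative fits. Rnf125, a ubiquitin ligase that marks RIG-I and MDA5 for degradation, rose by log2 0.84 in ISO and 0.67 in SR-3420, calls that held in 12 and 7 of 14 alternative fits. The other risers were Pcbp2 (log2 0.42, held in 5 of 14) in ISO and Dhx15 and Mfn2 (log2 0.54 each, held in 12 and 7 of 14) in SR-3420. The gene that fell in SR-3420 was Rnf135, another ubiquitin ligase of RIG-I (log2 -0.98, edgeR adjusted p = 0.0146, held in 10 of 14), and in ISO it had a log2 fold change of -0.27 and did not pass.

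Of 10 tested genes of DNA sensing, 3 rose in both ISO and SR-3420 (7.92% and 7.26% of all genes tested rose). They were Ifi204, Mnda and Ifi35, at log2 2.72, 2.4 and 1.04 in ISO and 3.49, 2.67 and 1.16 in SR-3420. With 1 library left out, Ifi204 in ISO ran from 2.34 to 3.52. Ifi204 and Mnda belong to a cluster of near-identical genes whose reads may have been split between copies. The call of Ifi35 held in 5 of 14 alternative fits in ISO and 8 of 14 in SR-3420. Mb21d1, the gene of cGAS, had log2 fold changes of -0.28 and -0.22 and did not pass. The receptor genes Tlr7, Tlr8 and Tlr9 had at most 3 counts in a library and were not tested. None of the 6 tested adaptors, chaperones and kinases of the Toll-like receptor pathway, among them Myd88, Ticam1, Unc93b1 and Irak1, passed in ISO or SR-3420 (0 by edgeR and 0 by DESeq2). At an unadjusted p under 0.05 there were 2 and 1 of the 6, against 2629 and 2548 of the 10178 genes tested. Around TBK1, 3 of 11 genes rose in ISO and 2 in SR-3420, against 7.92% and 7.26% of all genes tested. Optn, a selective autophagy receptor, rose by log2 0.78 and 0.71 and the TBK1 adaptor gene Azi2 by 0.47 and 0.43. The TBK1 adaptor gene Tank rose by 0.80 in ISO. Azi2 overlaps another gene on the other strand, and its call held in 9 of 14 alternative fits in ISO and 3 of 14 in SR-3420.

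Downstream of ZBP1, 2 of 4 genes tested rose, against 7.92% of all genes tested in ISO and 7.26% in SR-3420. Mlkl, which executes necroptosis, rose by log2 0.89 in ISO and 1.40 in SR-3420, calls that held in 13 and 14 of 14 alternative fits. Casp8, which opposes necroptosis, rose by 0.73 in both, calls that held in 14 and 13 of 14. Among the 7 tested kinases, phosphatases and partners of eIF2α other than PKR, Ppp1r15b alone passed, a count that does not stand out from those shares. It rose by log2 0.93 in ISO and 0.82 in SR-3420, calls that held in 11 and 3 of 14 alternative fits. Among double-stranded RNA-binding and editing genes other than Adar, Dgcr8 fell by 0.69 on the log2 scale in ISO and by 1.05 in SR-3420. Dgcr8, a partner of Drosha in microRNA processing, overlaps a gene on the other strand. Among genes of interferon receptor signalling, Stat2 and Irf9, which act in the nucleus after interferon binds its receptor, rose by log2 1.07 and 1.22 in ISO and 1.76 and 1.41 in SR-3420, where the kinase gene Jak1 also rose (0.62, held in 10 of 14 alternative fits). The call of Irf9 in ISO held in 9 of 14 alternative fits. It was lost without ISO without Dox replicate 1 or 3 (edgeR adjusted p = 0.126 and 0.0998) and without ISO with Dox replicate 2 (log2 0.78, edgeR adjusted p = 0.26). The receptor gene Ifnar1 had log2 fold changes of -0.13 and -0.32, and interferon ligand genes were not analysed here. Of 19 interferon targets in the table outside the 10 genes, Ifit1, Isg15 and Oas3 had too few reads to be tested. Another 7, such as Mx1 and Oas1a, passed the filter only through libraries with Dox, which fixes their direction. The other 9 rose in ISO, at log2 1.74 to 4.67, and in SR-3420, at log2 2.01 to 4.40, against 7.92% and 7.26% of all genes tested. Mx2 was highest of the 4 named by p, at log2 4.67 in ISO and 4.40 in SR-3420, above Oasl2 (3.66 and 3.56), Rtp4 (3.44 and 3.35) and Bst2 (3.19 and 3.28). With 1 library left out, Mx2 in ISO ran from 4.23 to 5.44 and Oasl2 in ISO from 3.28 to 4.43.

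**Figure D5:**
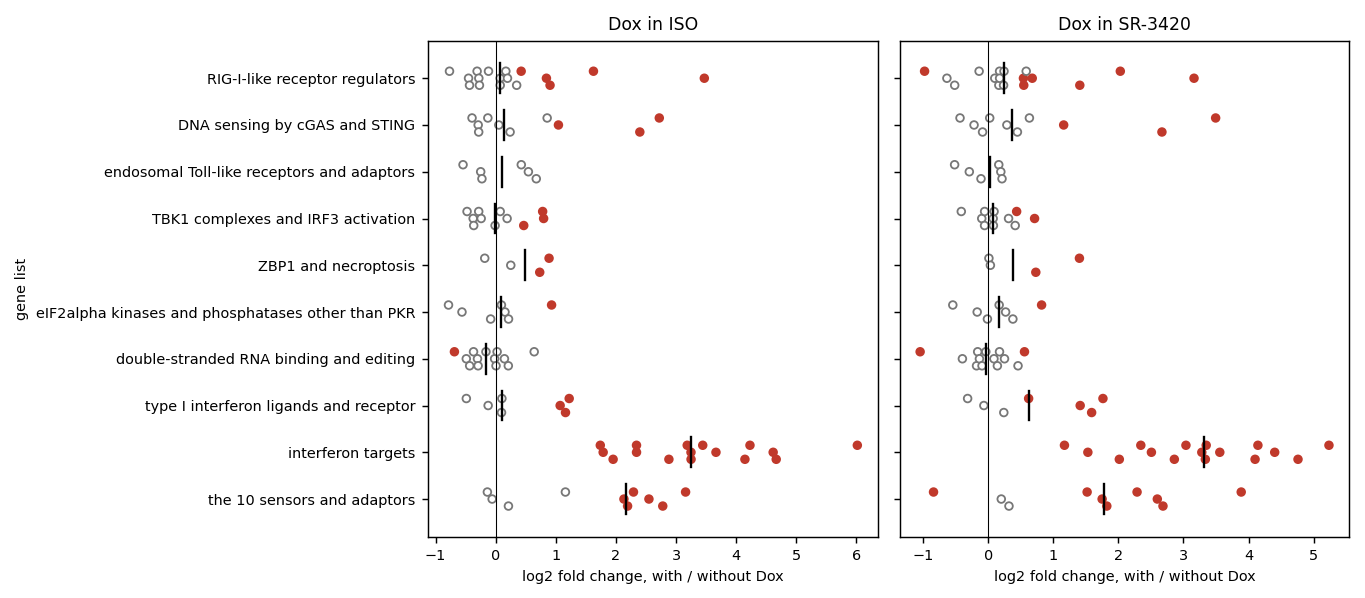
Log2 fold change with against without Dox (horizontal axis) in ISO (left) and SR-3420 (right) for the tested genes of each pathway list and the 10 sensors and adaptors (vertical axis), 1 point per gene, with those past an adjusted p of 0.05 filled and a bar at the median. The 16 tested interferon targets lie furthest to the right, with medians of 3.25 and 3.31, and 7 of them passed the filter on low counts only through libraries with Dox, the 10 sensors and adaptors have medians of 2.16 and 1.79, and the other lists have medians between -0.16 and 0.62.

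Genes whose level over the 18 libraries was most like that of a helicase were found by Pearson correlation of log2(CPM + 0.5), which is given as a description, since the libraries share 1 large difference with Dox. For Ddx58 they were Oasl2 (r = 0.984), Gbp3 (0.981) and Gbp10 (0.978). For Ifih1 they were Gbp7 (0.957), Trim30a (0.953) and Znfx1 (0.951), the last overlapping a gene on the other strand. For Dhx58 they were Oas1b (0.984), Xaf1 (0.983) and Phf11d (0.981). Oasl2 and Oas1b belong to the oligoadenylate synthetase family, and the Gbp genes encode guanylate-binding proteins.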

How the data were processed

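The authors aligned reads to mm9 with STAR 2.4.2a, used HOMER to keep 1 read per position and length, and made the gene table in iRNA-seq with its option for counting over genes, though the counted lengths lie near the intron lengths. The deposited values are whole-number counts, not normalised, for 18 libraries. The labels' processing notes also list hg19, and the gene coordinates of the table are those of the mouse build. All sample columns were mapped to samples by title.

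Genes were filtered with filterByExpr (10178 tested, 7494 not), scaled by TMM factors (0.768 to 1.13) and fitted in edgeR 4.0.16 (R 4.3.3) with the quasi-likelihood test, 6 group means and no covariate. Tests are two-sided, with Benjamini-Hochberg adjustment over all genes tested. "Passed", "rose" and "fell" mean an adjusted p of 0.05 or less, and calls at 2-fold require a 2-fold change as well. The study used DESeq2, here (1.42.0) an alternative, with RLE factors, library totals, no filter, the replicate block, only the groups of a contrast, thinned counts, no fold limit and each library left out. The script was tested on simulated data. The common dispersion was 0.0176.

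The 10 genes, the pathway lists and the alternatives were chosen with earlier results of these data known. Named genes were the 10, Abhd5, per list and contrast up to 4 past the threshold with the smallest p in ISO or SR-3420, the 3 most like each helicase, and genes overlapping the 10. Rnf135, Pcbp2, Mfn2, Mb21d1, Ifnar1, Siglech, the Toll-like receptor genes and adaptors and Ifit1, Isg15, Oas3, Mx1 and Oas1a were named after their values were seen. Replicates were numbered by title, and the study describes independent experiments. Deviations of same-numbered libraries correlated above 0.1 in every pair for Dox in ISO (lowest r 0.113), ISO with Dox (0.151), SR-3420 without Dox (0.124) and SR-3420 with Dox (0.115). No pair of replicates agreed within sampling noise (lowest chi-square per gene 2.24). Some genes of the pathway lists are not reported here.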

Additional observations from a re-analysis of the deposited data

Results flagged for a closer look

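Among the named genes, 3 responded differently to Dox in a stimulation than in DMSO, by the edgeR test of the interaction itself. Abhd5, the targeted gene, had an interaction of -0.98 on the log2 scale with ISO (SE 0.23, edgeR adjusted p = 0.0194). Its mean was 52.6 ± 4.71 CPM without and 574 ± 86.1 CPM with Dox in DMSO, and 149 ± 21.9 CPM without and 827 ± 28.5 CPM with Dox in ISO (SD, n = 3). The other two come from the pathway lists. Tank, which encodes an adaptor of TBK1, had an interaction of 0.98 on the log2 scale with ISO (SE 0.21, edgeR adjusted p = 0.0081). Its mean was 117 ± 15.1 CPM without and 103 ± 10.6 CPM with Dox in DMSO, and 148 ± 12.9 CPM without and 257 ± 31.4 CPM with Dox in ISO (SD, n = 3). Dgcr8, a partner of Drosha, had an interaction of -1.14 with SR-3420 (SE 0.22, edgeR adjusted p = 0.0105). Its mean was 163 ± 27.9 CPM without and 171 ± 17.8 CPM with Dox in DMSO, and 156 ± 12.7 CPM without and 75.9 ± 16.6 CPM with Dox in SR-3420. None of the 10 sensor and adaptor genes passed this test (0 of 10 in edgeR for both stimulations). At an unadjusted p under 0.05 there was 1, Mavs with SR-3420, where 1227 of the 10178 genes tested were. Groups of 3 libraries were not tested for outlying samples.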

How the results depend on the processing

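The rise of Ddx58, Ifih1, Dhx58, Eif2ak2, Zbp1 and Adar passed in all 14 alternative fits in ISO and in SR-3420. For Zbp1 this carries no weight, since it entered the main test only through libraries with Dox. The lowest estimates were 1.24 (Ifih1 in SR-3420) and the highest adjusted p 0.0169 (Ifih1 in SR-3420). Of 1411 values of single genes under an alternative, 1294 were counted as unchanged. Another 104 were counted as having lost the threshold, 4 as having gained it and 9 as having changed sign. The 104 hold no loss of Ifih1 for Dox in DMSO, although Ifih1 passed there in only 13 of 14 alternative fits. That loss is among the 1294. The sign changed for Tbk1 with library totals (-0.022 for Dox in SR-3420, -0.0023 for SR-3420 with Dox). It changed for Tmem173 in ISO (0.22, 0.069 and 0.10 without ISO without Dox replicate 1 or 2 or ISO with Dox replicate 1, lowest -0.41 with another library left out) and in SR-3420 (-0.16 without SR-3420 without Dox replicate 2, highest 0.79, and -0.28 without all libraries numbered 2), and for Mavs in ISO (0.11 without ISO without Dox replicate 3, 0.13 without ISO with Dox replicate 2, lowest -0.30). None of these estimates passed. Library totals in place of TMM factors moved the median of all genes by more than 0.1, to -0.22 for Dox in SR-3420, -0.19 and -0.16 for ISO without and with Dox, -0.21 for SR-3420 with Dox and -0.14 for its interaction.

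Counts of genes past the 2-fold call moved by over 1.5 times in some fits, and the cause was not tested. SR-3420 without Dox gave 27 genes, 41 with no filter, 16 with DESeq2 and 41 with the replicate block. The interaction with ISO gave 133, 205 with no filter, 235 with the block and 200 without all libraries numbered 2. The interaction with SR-3420 gave 60, 100 with no filter, 128 with the block and 16 when thinned, which lowers depth. With no fold limit the counts were 1297 for Dox in ISO, 1175 for Dox in SR-3420, 2846 and 3309 for ISO without and with Dox, 78 and 1008 for SR-3420 without and with Dox and 222 for the interaction with ISO, and 1 of the 10 genes (Dhx58) for ISO with Dox. Leaving out 1 library gave 16 to 31 for SR-3420 without Dox (16 without DMSO without Dox replicate 1), 87 to 197 for the interaction with ISO (87 without ISO with Dox replicate 1) and 27 to 61 for that with SR-3420. In the last, the counts were 35 without DMSO without Dox replicate 1 or 3, 37 and 28 without SR-3420 without Dox replicate 1 and 3, 27 without DMSO with Dox replicate 3 and 31 without SR-3420 with Dox replicate 1.

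With the replicate number as a block, Ddx58 and Tlr3 passed for ISO with Dox as given above, and Ddx58 passed for ISO without Dox (log2 -0.98, edgeR adjusted p = 0.0174), where the numbers did not pair (lowest r 0.0733). For Dox in DMSO and in SR-3420 the lowest r was 0.0779 and 0.0314. Over all 10 genes and 9 contrasts the block changed no other pass of the adjusted p.

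Depth limits Zbp1, Tlr3 and Tmem173 the most, with fewer than 20 reads in each library without Dox. p-values measure the spread between these 3 libraries a group.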
